A study of Mus musculus with 8 samples.

Results

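SNARE proteins and their partners carry out the fusion of vesicles with target membranes, and 84 of the 25697 probes on the array matched this machinery by gene symbol. The rule took symbols that begin with Syt, Stx, Stxbp, Vamp or Snap and a digit or with Sv2, together with Syn1 to Syn3, Napa, Napb, Napg and Nsf, without use of any measured value. These 84 probes stood for 54 of the 18120 symbols in the table. The rule also caught Snap91, a clathrin assembly protein of endocytosis that is no SNARE.

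RNA came from STHdh cells, a mouse line immortalized from wild-type embryonic striatum, on 8 Illumina MouseRef-8 v2 arrays. The 4 mock arrays held cells that received the empty pcDNA3.1 plasmid, which the labels call wild-type, and the 4 Bcl11b arrays held cells transfected with pcDNA3.1 carrying the beta isoform of Bcl11b, a zinc finger transcription factor of striatal neurons. Both groups were harvested 2 days after transient transfection of 1 cell line. The replicates are described in the study as separate sets of transfected cells, so p-values measure the spread between transfections of this line.

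A vesicle carries a VAMP protein, and its target membrane carries a syntaxin with a SNAP25-type partner. These proteins zip together and pull the membranes into contact, proteins of the Munc18 type (Stxbp genes) bind the syntaxin, and the ATPase Nsf with its adaptors Napa, Napb and Napg takes the spent complex apart. Neurons release transmitter through Stx1a, Snap25, Vamp1 and Vamp2, with synaptotagmins as calcium sensors and with synapsins and SV2 proteins on the vesicle. Every cell uses other members of the same families for traffic through the Golgi, endosomes and the plasma membrane.

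The comparison asked which of these genes changed when Bcl11b was added to the cells. Probes were called detected on an array at a deposited detection p-value under 0.01, against the negative control beads of that array. Of all probes, 45.7% were detected on at least 1 array and 36.4% on all 8. The single Bcl11b probe was not detected on any array, with detection p-values of 0.261 to 0.699, and the table does not give probe sequences, so this probe did not check the labels. Median signals before normalization were 31.6 to 53.9 on the mock arrays and 20.1 to 30.2 on the Bcl11b arrays, so values below are log2 signals after quantile normalization. Of the markers set down for neurons, 5 of 16 probes were detected, from Map2, Nefm and Stmn2. The Map2 probes ILMN_1226553 and ILMN_2709782 were each detected on 1 array only. Detected probes were 0 of 10 for striatal projection neurons and 5 of 8 for neural progenitors, from Nes, Sox2 and Vim. At a detection limit of 0.05 the counts were 8 for neurons, 3 for striatal projection neurons and 6 for neural progenitors. By PCR, the study detected Ppp1r1b and other striatal markers in these cells. Mesenchymal markers were detected with 6 of 9 probes, and markers of astrocytes, oligodendrocytes and microglia with 0 of 7, 0 of 6 and 0 of 6.

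A total of 47 member probes (56.0%), from 29 symbols, were detected on at least 1 array, and 35 (41.7%) on all 8. Single mock arrays detected 40 to 44 member probes, and single Bcl11b arrays 40 to 43. Detection differed between the roles, as counted here without a test. All 7 probes for SNARE disassembly (Nsf, Napa, Napb and Napg) were detected on all 8 arrays, as were 7 of 8 probes for SNAREs of endosomes and lysosomes. So were 6 of 8 for those of the Golgi and endoplasmic reticulum and 7 of 11 for plasma membrane SNAREs used outside neurons. The role lists put each gene in 1 role only, with Vamp8 among the plasma membrane SNAREs and Vamp5 among the endosomal ones. Of the 8 probes for brain exocytic SNAREs, 4 were detected on any array, with Stx1a and Vamp2 on all 8 and Vamp1 on some, and of the 7 for synapsins and SV2 proteins 4 were detected, of Syn1 and Sv2a, none on all 8. Of the 23 synaptotagmin probes, 4 were detected on any array, and they came from Syt11 and Syt12, a pair of synaptotagmins that do not act as the calcium sensors of fast release. Syt1, the calcium sensor of fast transmitter release, had detection p-values of 0.209 to 0.497. Snap25, the SNARE of the neuronal plasma membrane, had detection p-values of 0.360 to 0.858. Syn2 and Syn3, Sv2b and both Snap91 probes were not detected either. At a detection limit of 0.05, 55 member probes were detected.

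**Figure D1:**
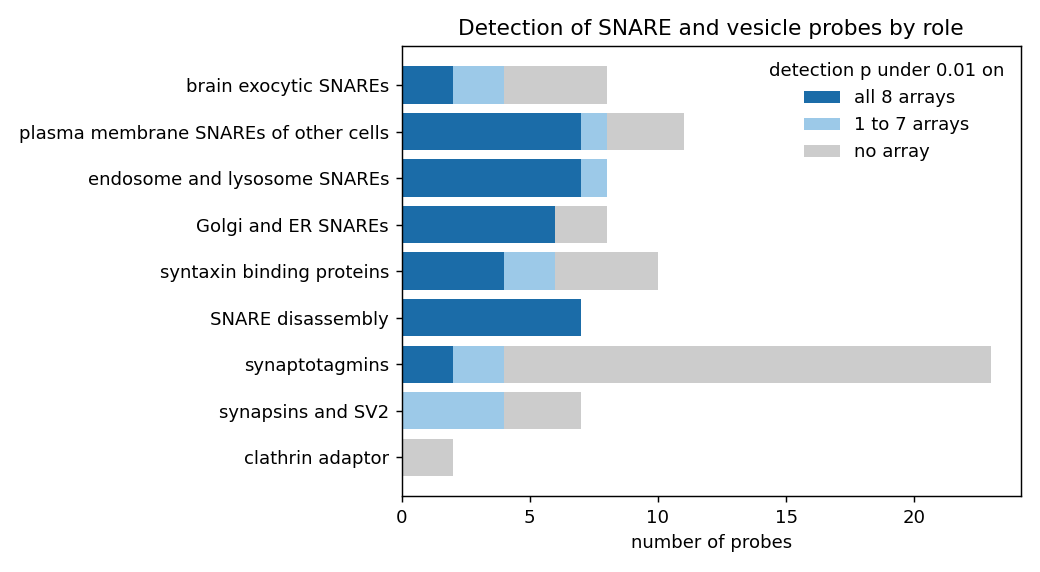
Horizontal bars count the probes of each role (x axis, number of probes), split by whether the detection p-value was under 0.01 on all 8 arrays, on some or on none. The SNARE disassembly bar is filled to its full length of 7 probes, whereas 19 of the 23 synaptotagmin probes were detected on no array.

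No member probe passed the adjusted threshold of limma (adjusted p-value under 0.10), which 0.981% of all probes passed. At an unadjusted p-value under 0.05, limma counted 6 member probes (7.14%), 5 of them detected, against 10.4% of all probes. With the fold threshold of the study's methods in addition (0.32 on the log2 scale), 0 member probes were higher in the Bcl11b group and 5 (5.95%) were lower, where 3.2% of all probes were higher and 5.81% lower. Among detected probes the lower count was 4 of 47 (8.51%), against 10.5% of all detected probes, and no detected member was higher, against 4.32%. No detected member was above all mock arrays on all Bcl11b arrays, as 2.97% of detected probes were. The share of lower probes was thus near that of the array as a whole. In such bulk RNA, fewer cells that express a gene and less RNA per cell cannot be told apart. The lower count depended on single arrays. It was 2 without mock 3, 3 without mock 4, 3 without Bcl11b 1 and 8 without Bcl11b 4. The share of all probes counted lower moved as well, to 5.15%, 4.02%, 4.75% and 6.18% in those fits. Of the 35 members found on every array, 13 had a log2 fold change (Bcl11b minus mock) above 0 and 22 (62.9%) below. Among all probes detected on all 8 arrays, 53.4% were below 0. The members had a median of -0.09 and quartiles of -0.19 and 0.15, while the median of all probes detected on all 8 arrays was -0.03.

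**Figure D2:**
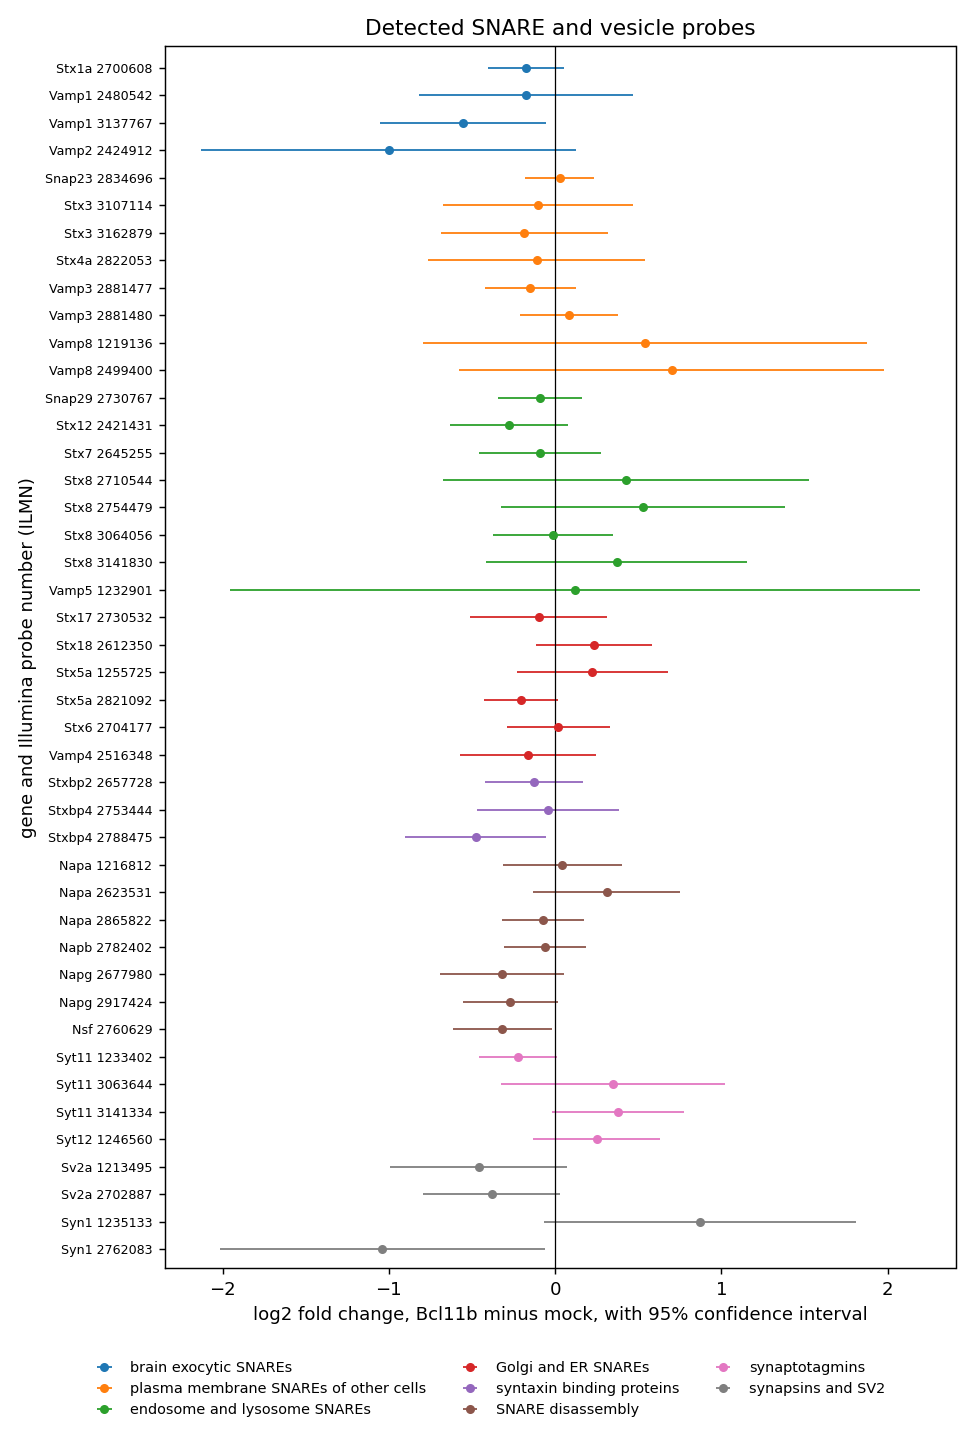
Each point is the log2 fold change (x axis, Bcl11b minus mock, 4 arrays each) of one of 44 detected member probes, with its 95% confidence interval from limma, colored by role. Most intervals cross 0, and those of Vamp5, Vamp8 and Vamp2 are the widest of the probes shown. The second Vamp1 probe shown was not detected in the Bcl11b group, so its point is only a fitted value.

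Among the syntaxin-binding proteins, Stxbp4 (Synip), known as a partner of Stx4 in insulin-regulated glucose transporter traffic, passed the unadjusted and fold thresholds. Its probe ILMN_2788475 measured 8.08, 8.14, 8.38 and 8.38 on mock arrays 1 to 4 and 7.73, 7.73, 7.40 and 8.20 on Bcl11b arrays 1 to 4. Bcl11b arrays 1 to 3 were below every mock array, and Bcl11b 4 lay among them. The log2 fold change was -0.48 (SE 0.18, limma adjusted p = 0.416). The p was no longer under 0.05 when mock 2, mock 3, mock 4, Bcl11b 1, Bcl11b 2 or Bcl11b 3 was left out. A second probe, ILMN_2753444, had a log2 fold change of -0.04. Stxbp2, the Munc18 protein of granule release in blood and epithelial cells, had -0.12 (SE 0.12). Stxbp3, the form found in most cells, Stxbp5l and Stxbp6 were not detected on any array.

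**Figure D3:**
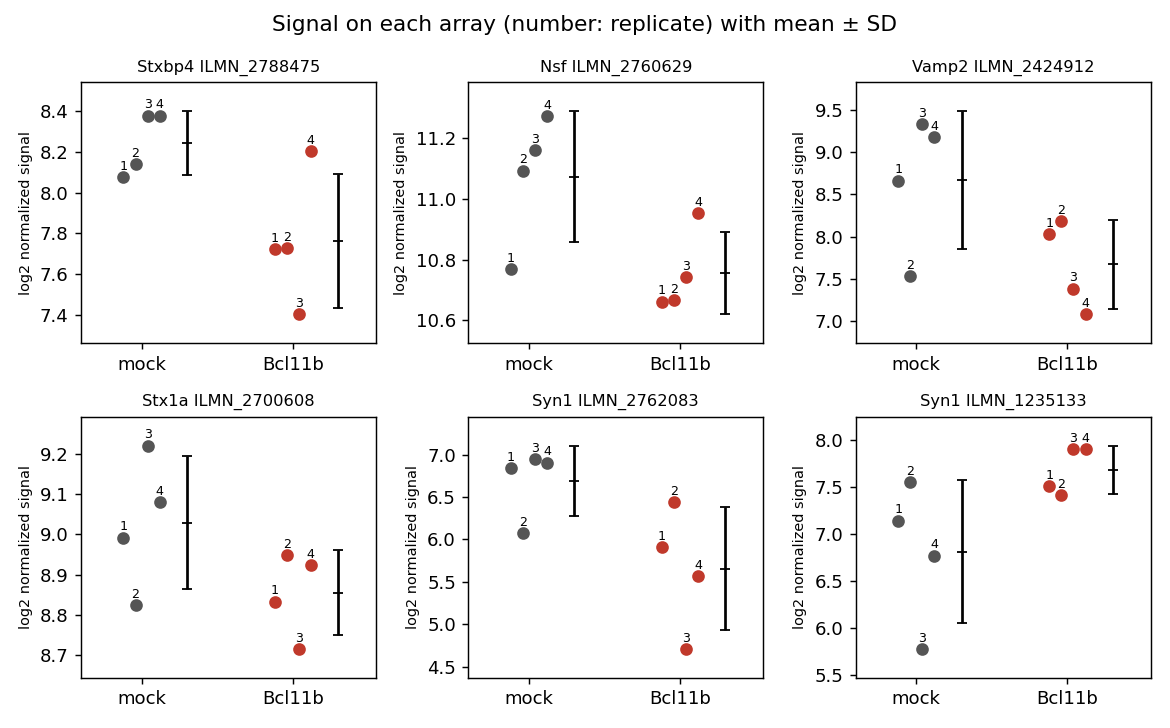
Each panel plots the log2 normalized signal (y axis) of 1 probe on the 4 mock and 4 Bcl11b arrays, numbered by replicate, with mean ± SD beside each group. The groups overlap in every panel, and the Syn1 panels have opposite slopes between the groups.

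The brain-type SNAREs that were detected had lower means in the Bcl11b group without passing the adjusted threshold. Vamp2, the main vesicle SNARE of transmitter release, measured 8.66, 7.53, 9.33 and 9.17 on mock arrays 1 to 4 and 8.03, 8.19, 7.39 and 7.08 on Bcl11b arrays 1 to 4 (ILMN_2424912). The mock values were widely spread, and mock 2 lay within the Bcl11b range. The means were 8.67 ± 0.81 and 7.67 ± 0.52 (SD, n = 4), a log2 fold change of -1.0 (SE 0.47, limma adjusted p = 0.552) with a 95% confidence interval of -2.13 to 0.13. With each array left out in turn it ran from -1.39 without mock 2 to -0.78 without mock 3 (limma adjusted p = 0.168 and 0.782). The unadjusted limma p was not under 0.05 in the reported fit but was in 6 of 18 alternative fits, and the adjusted p was under 0.10 in 0.

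Stx1a, the syntaxin of the nerve terminal, measured 8.99, 8.82, 9.22 and 9.08 on mock arrays 1 to 4 and 8.83, 8.95, 8.72 and 8.92 on Bcl11b arrays 1 to 4. The groups overlapped at mock 2, and the log2 fold change was -0.17 (SE 0.09, limma adjusted p = 0.658). Vamp1, a close relative of Vamp2 with roles in motor nerve terminals, was near the detection limit. Its brightest probe, ILMN_2480542, was detected on 2 mock arrays and 1 Bcl11b array. It measured 6.18, 5.88, 6.92 and 6.22 on mock arrays 1 to 4 and 5.74, 6.0, 6.51 and 6.26 on Bcl11b arrays 1 to 4, so the groups overlapped (-0.17, limma adjusted p = 0.972). A second, ILMN_3137767, was detected on 3 mock arrays and 0 Bcl11b arrays. It was at least 1.03-fold higher in the mock group, taking the dimmest detected signal of each Bcl11b array as the bound (measured means 6.41 and 5.85, limma adjusted p = 0.425). One more, ILMN_2480543, passed the unadjusted and fold thresholds but was not detected on any array, and no fold is given for it.

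Synapsin I (Syn1), which tethers synaptic vesicles to the cytoskeleton, had a pair of detected probes that pointed in opposite directions. ILMN_2762083 measured 6.84, 6.08, 6.95 and 6.91 on mock arrays 1 to 4 and 5.91, 6.44, 4.70 and 5.57 on Bcl11b arrays 1 to 4. It was detected on 3 mock arrays and 1 Bcl11b array, mock 2 lay inside the Bcl11b range, and the log2 fold change was -1.04 (SE 0.41, limma adjusted p = 0.449). That p was no longer under 0.05 when mock 1, mock 3, mock 4, Bcl11b 1, Bcl11b 3 or Bcl11b 4 was left out. ILMN_1235133 measured 7.14, 7.55, 5.77 and 6.77 on mock arrays 1 to 4 and 7.51, 7.41, 7.90 and 7.90 on Bcl11b arrays 1 to 4. The mock group was the more variable one and mock 2 reached the Bcl11b range. The log2 fold change was 0.87 (SE 0.39, limma adjusted p = 0.521). Its unadjusted limma p was not under 0.05 in the reported fit but was in 6 of 18 alternative fits, and the adjusted p was under 0.10 in 0. No direction is given for the gene. Sv2a, a glycoprotein of the synaptic vesicle membrane and the binding target of levetiracetam, had log2 fold changes of -0.46 and -0.38 (limma adjusted p = 0.572 and 0.524) with both of its probes, which were near the detection limit.

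The SNARE disassembly genes were detected throughout and had narrow intervals. Nsf measured 10.77, 11.09, 11.16 and 11.27 on mock arrays 1 to 4 and 10.66, 10.67, 10.74 and 10.95 on Bcl11b arrays 1 to 4. Only mock 1 lay among the Bcl11b arrays. The log2 fold change of -0.32 (SE 0.12, limma adjusted p = 0.449) had an unadjusted p under 0.05 and was just short of the fold threshold. That p was no longer under 0.05 when mock 2, mock 3, mock 4, Bcl11b 1, Bcl11b 2 or Bcl11b 3 was left out, nor with median scaling, the shifted signal, limma-trend or either detection filter.

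Napa (alpha-SNAP), which recruits Nsf to the complex, measured 10.60, 10.32, 10.34 and 10.74 on mock arrays 1 to 4 and 10.46, 10.48, 10.41 and 10.38 on Bcl11b arrays 1 to 4. The Bcl11b values lay inside the mock range, and the log2 fold change was -0.07 with a 95% confidence interval of -0.32 to 0.18 (limma adjusted p = 0.956). Its dimmer probes had 0.04 and 0.31. Napg (gamma-SNAP) had -0.32 and -0.27 with its probes (limma adjusted p = 0.572 and 0.516), and Napb, the form enriched in brain, had -0.06.

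The plasma membrane SNAREs of other cells overlapped between the groups. Snap23, the broadly expressed counterpart of Snap25, measured 10.43, 10.48, 10.26 and 10.45 on mock arrays 1 to 4 and 10.45, 10.44, 10.24 and 10.60 on Bcl11b arrays 1 to 4. The 2 sets of values covered nearly the same range, and the 95% confidence interval of the log2 fold change, 0.03, ran from -0.18 to 0.23 (limma adjusted p = 1). Vamp3 (cellubrevin), the vesicle SNARE of recycling endosomes, measured 11.95, 12.01, 12.17 and 12.16 on mock arrays 1 to 4 and 11.79, 11.89, 11.79 and 12.23 on Bcl11b arrays 1 to 4 (ILMN_2881477). Bcl11b arrays 1 to 3 were below the mock arrays and Bcl11b 4 was above them, for a log2 fold change of -0.15 (limma adjusted p = 0.791), while the second probe gave 0.08. Stx4 (listed as Stx4a), the syntaxin of regulated delivery to the surface, measured 9.45, 8.37, 8.83 and 8.75 on mock arrays 1 to 4 and 8.96, 9.06, 8.61 and 8.32 on Bcl11b arrays 1 to 4. The groups overlapped throughout (-0.11, limma adjusted p = 1). Stx3, an apical membrane syntaxin, had -0.19 and -0.10, and Stx19 was not detected.

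Of the Golgi and endoplasmic reticulum SNAREs, 3 detected probes had log2 fold changes above 0 and 3 below, from -0.20 to 0.23. Stx5 (listed as Stx5a), which serves traffic into the Golgi, gave -0.20 with one probe (limma adjusted p = 0.53) and 0.22 with the other. Stx18, a syntaxin of the endoplasmic reticulum, had 0.23, Vamp4 and Stx6 of the trans-Golgi network had -0.16 and 0.02, and Stx17, known from autophagosomes, had -0.10. Stx16 was not detected. In endosomes and lysosomes, Stx12 had -0.28 (limma adjusted p = 0.63), and both Stx7 and Snap29 had -0.09. Of the synaptotagmins, the brightest Syt11 probe had -0.22 (limma adjusted p = 0.51) and its 2 dim probes 0.38 and 0.35, and Syt12 had 0.25.

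Several members varied more within the groups than between them. Stx8, a SNARE of late endosomes, measured 9.54, 8.79, 9.09 and 8.34 on mock arrays 1 to 4 and 9.62, 9.77, 9.80 and 8.69 on Bcl11b arrays 1 to 4 (ILMN_2754479). Vamp8 (endobrevin), a vesicle SNARE of late endosomes and secretory granules, measured 9.02, 8.07, 9.02 and 7.86 on mock arrays 1 to 4 and 9.50, 9.46, 9.95 and 7.87 on Bcl11b arrays 1 to 4 (ILMN_2499400). Both genes were lowest on mock 2, mock 4 and Bcl11b 4, and their log2 fold changes were 0.53 (SE 0.36, limma adjusted p = 0.732) and 0.70 (SE 0.53, limma adjusted p = 0.792). The same 3 arrays were the lowest for 3 of the 4 Stx8 probes and for both Vamp8 probes. The remaining Stx8 probe, ILMN_3064056, did not follow this order.

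Vamp5, a VAMP first known from muscle, was detected on 2 mock and 3 Bcl11b arrays and measured 7.25, 5.98, 6.70 and 5.17 on mock arrays 1 to 4 and 7.16, 7.04, 7.26 and 4.09 on Bcl11b arrays 1 to 4. It too was lowest on those 3 arrays. Stx8, Vamp8 and Vamp5 were singled out, and the 3 arrays chosen, after their values were seen. Among probes detected on all 8 arrays, the 3 arrays were the lowest for 5 of 35 member probes (14.3%) and for 14.1% of all probes, and they were the highest for 3 member probes (8.57%), of Snap23, Stx7 and Stxbp4, and for 15% of all. This order was therefore as common elsewhere on the array, and it is given as a description with no test.

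**Figure D4:**
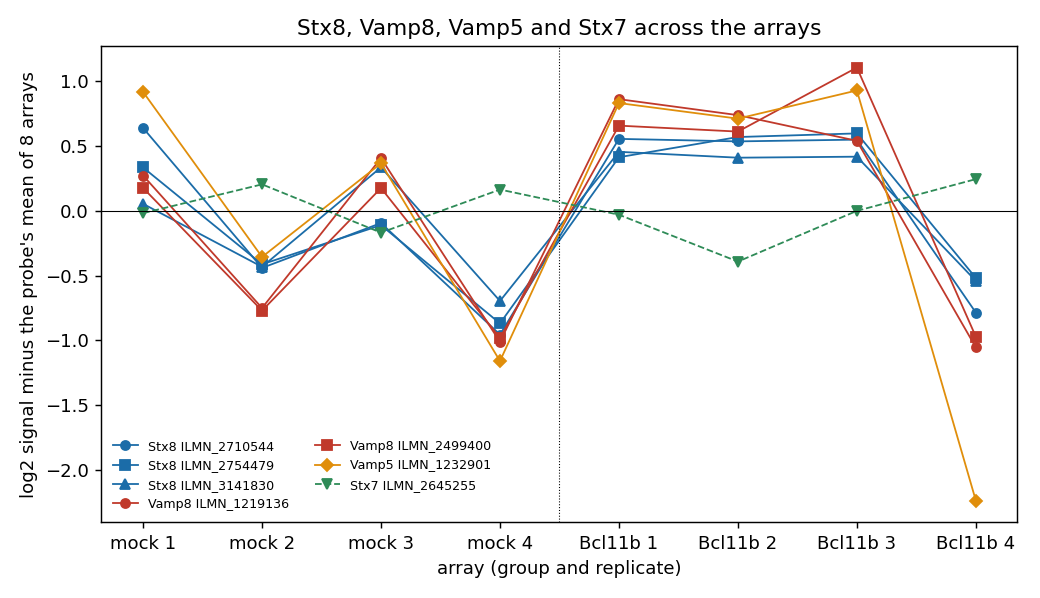
Lines join the log2 normalized signal of each probe, minus its mean over the 8 arrays (y axis), across the arrays named on the x axis; the dotted line divides mock from Bcl11b arrays. The Stx8, Vamp8 and Vamp5 lines dip on mock 2, mock 4 and Bcl11b 4, and the dashed Stx7 line peaks there.

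Because Stx8 and Vamp8 varied together across the arrays and Stx7 the opposite way, the 250 bases before their transcription starts are shown, from RefSeq (GRCm38.p6), 5′ to 3′ on the strand of the gene. Capitals mark ACCACA, then TGCTTG and also AGTGCT, on either strand. The study found each of them in some of its top Bcl11b binding regions, wherever these lay in the genome. It proposes that most Bcl11b sites lie at a distance from promoters, so these windows are no readout of binding. The study also listed AG[AT]GTG and GGATCA, from binding regions at the 5′ side of genes. These are not marked and were not counted over all windows. On either strand, AG[AT]GTG occurs in the Stx8 and Stx7 windows and GGATCA in the Vamp8 window. The windows lie at chr11:67966208-67966457 (plus strand) for Stx8, chr6:72390668-72390917 (minus strand) for Vamp8 and chr10:24149039-24149288 (plus strand) for the first of the 2 Stx7 starts listed.
Stx8: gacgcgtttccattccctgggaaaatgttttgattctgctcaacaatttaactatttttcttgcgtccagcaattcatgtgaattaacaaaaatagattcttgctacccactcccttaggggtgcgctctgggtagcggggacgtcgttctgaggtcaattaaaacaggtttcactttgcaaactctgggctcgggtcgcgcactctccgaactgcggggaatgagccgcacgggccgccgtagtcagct
Vamp8: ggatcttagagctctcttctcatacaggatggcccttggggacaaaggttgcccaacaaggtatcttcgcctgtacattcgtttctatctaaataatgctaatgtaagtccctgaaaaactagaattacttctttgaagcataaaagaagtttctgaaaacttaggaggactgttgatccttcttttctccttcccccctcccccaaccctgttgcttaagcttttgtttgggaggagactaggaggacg
Stx7: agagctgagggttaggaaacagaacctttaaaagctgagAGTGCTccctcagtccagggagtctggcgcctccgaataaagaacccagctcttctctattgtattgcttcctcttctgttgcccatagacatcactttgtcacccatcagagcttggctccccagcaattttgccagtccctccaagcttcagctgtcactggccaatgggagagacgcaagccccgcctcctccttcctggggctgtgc
The Stx8 and Vamp8 windows held none of the marked hexamers, and the Stx7 window held AGTGCT once, 211 bases before the start. Because each window holds an unmarked motif of the study, the marks do not set Stx7 apart. The window of the other Stx7 start, which overlaps it and is not shown, held the same AGTGCT and also TGCTTG, 7 bases before that start. Over all 32851 windows of this length, 14% held ACCACA, 13.7% TGCTTG and 12.6% AGTGCT. The 56 windows found for 42 of the 54 member symbols held them in 5, 6 and 8 cases (8.9%, 10.7% and 14.3%). The core of the neuron-restrictive silencer element, on either strand, was in 11 of all windows and in 0 of the member windows. So rare an exact match cannot tell whether the members have or lack the element. These letters are a description of the windows.

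A list of 105 probes for other genes of vesicle fusion, from 67 symbols outside the rule, was measured alongside. Of these, 53 were detected, and 26 probes for further SNAREs held none past either threshold. Past the unadjusted and fold thresholds of limma, 6 detected probes of the list were higher and 3 lower with Bcl11b (11.3% and 5.66%, against 4.32% and 10.5% of all detected probes). Of the 6 higher probes, 3 were of the single gene Syngr2, and the others were of Slc17a8, Vps45 and Scamp5. The Scamp5 probe, ILMN_1255263, named after its values were seen, was detected on 2 Bcl11b arrays and 0 mock arrays. The brighter Scamp5 probe had a log2 fold change of -0.04. Slc17a8 (VGLUT3), a vesicular glutamate transporter, was the only gene of the list past the adjusted threshold, and was detected on 3 Bcl11b arrays and 0 mock arrays. It was at least 1.15-fold higher in the Bcl11b group (measured means 3.70 ± 0.64 and 6.52 ± 0.57, SD, n = 4, limma adjusted p = 0.0622). Its adjusted p was under 0.10 in 8 of 17 alternative fits and above it without mock 1, mock 3, mock 4, Bcl11b 1, Bcl11b 2 or Bcl11b 4. Scamp2, a carrier membrane protein of the recycling pathway, was lower in all Bcl11b arrays (10.41 to 10.54) than in all mock arrays (10.66 to 11.30), a log2 fold change of -0.54 (SE 0.13, limma adjusted p = 0.206). The other 2 lower probes were both of Vps33b, a relative of Munc18 in late endosomal tethering, with -0.40 and -0.34 (limma adjusted p = 0.453 and 0.433), and were named after their values were seen. Sytl3 had 1 of the 3 smallest p-values of the list but was not detected on any array.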

How the data were processed

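Total RNA of 4 mock and 4 Bcl11b samples was hybridised to 1 Illumina array each. The authors deposited, for each probe and array, an intensity that GenomeStudio had averaged over beads and corrected by background subtraction, without normalization between arrays, so 30.6% to 31.6% of values per array were at or below 0. They also deposited a detection p-value of each probe against the negative control beads. Groups and replicate numbers came from the sample labels, and 0 columns of sample values were left out. Intensities were quantile-normalized, set to at least 1 and taken to log2. All 25697 probes were fitted with limma 3.58.1 (lmFit and eBayes, default settings, R 4.3.3), with Benjamini-Hochberg adjustment over all of them, following the study's methods and its thresholds (an adjusted p-value of 0.10, or an unadjusted p-value of 0.05 with a 1.25-fold change). For the comparison of Bcl11b with mock, data simulated over 25697 probes with 200 changed by 1 on the log2 scale gave 86 recovered probes (43%) and 9 false calls at the adjusted threshold. The number of arrays limits the precision of every value.

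The members, role lists and markers were chosen with earlier results of these data known. Array values are given for the main exocytic genes of neurons and of other cells where detected, and for members detected on at least 4 arrays that passed the unadjusted and fold thresholds. Of the other vesicle genes, those past the adjusted threshold and the 3 smallest p-values are named. Members were matched to RefSeq (GRCm38.p6) for 53 of 54 symbols. A gene was represented by its brightest probe, and other probes are given where they differ. Signals of different probes were not compared with each other. Results for 2 member genes are not reported here, although the counts over all members include their probes. Alternatives covered normalization, offset, detection filter, replicate block, limma-trend, array weights and leaving out each array; those for the other vesicle genes were added after seeing the data. Motifs and promoters were also chosen then.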

Additional observations from a re-analysis of the deposited data

Results flagged for a closer look

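In 3 of the 32 groups of 4 arrays examined for the named probes, 1 array lay far from the other 3 for its group's range, where chance gives about 1 in 20. Syn1 (ILMN_2762083) was 6.08 on mock 2, below the other mock arrays. On Bcl11b 4, Stx8 (ILMN_2754479) was 8.69 and Vamp5 was 4.095, both below the other Bcl11b arrays.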

How the results depend on the processing

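The count of member probes past the adjusted threshold was 0 in the reported fit and in every alternative except array weights, where it was 1. The count of higher members (0 as reported) was 2 with neqc, 1 with an offset of 16 and 2 with the lowest signal shifted to 1. It was 1 with each detection filter (0.01 or 0.05 on 4 arrays), 3 with array weights and 0 to 2 when an array was left out. The share of all fitted probes counted higher was 3.08% with neqc, 4.24% with the offset and 4.76% with the shifted signal. It was 5.45% and 5.49% with the filters, 5.81% with array weights and 2.27% to 4.63% with an array left out. The count of lower members (5) was 32 without normalization between arrays. There all probes together shifted to a median of -0.49 (log2) and 26.5% of all probes were counted lower. The count was 2 to 8 when an array was left out, where 4.02% to 7.25% of all probes were lower. With the replicate number as a block it was 3, against 4.91% of all probes. The numbers were not taken to pair the samples, because deviations of same-numbered arrays correlated at 0.68, -0.63, 0.18 and 0.70 over 9360 probes, and mock arrays 2 and 3 correlated best with Bcl11b arrays 4 and 1.

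Of the 105 probes of the other vesicle genes, with undetected probes counted too, higher probes (8) were 2 without normalization and 4 to 10 with an array left out. The share of all probes counted higher was 0.556% without normalization and 2.27% to 4.63% with an array left out. Lower probes (5) were 24 without normalization and 3 with median scaling, neqc, the shifted signal or the 0.05 filter. They were 2 with the 0.01 filter or limma-trend, and 2 to 7 with an array left out. The share of all fitted probes counted lower was 26.5%, then 4.35%, 5.84%, 6.55% and 10.4%, in the order of the first sentence. It was 10.9% with the 0.01 filter, 5.12% with limma-trend and 4.02% to 7.25% with an array left out.

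Signs of small differences turned. Stx4a was 0.090 with array weights and -0.27 to 0.087 with an array left out, Snap23 -0.66 without normalization and -0.029 to 0.091 with an array left out, and Vamp1 (ILMN_2480542) -0.31 to 0.032. Vamp3 was 0.0097 with median scaling and 0.082 with its other probe. Napa was 0.00035 with median scaling, -0.13 to 0.0097 with an array left out, and 0.043 and 0.31 with its other probes. Without normalization Stx8 was -0.19, Vamp8 -0.013 and Vamp5 -0.63, Vamp5 was -0.25 to 0.88 with an array left out, and another Stx8 probe gave -0.013. The Syn1 probes gave -1.04 and 0.87. For the named probes, 222 alternative values kept sign and side of the unadjusted threshold, 28 lost it, 24 gained it and 23 changed sign. The cause was not tested. Signal over background limits the values of Vamp1, Vamp5, Syn1 and Sv2a, which were detected on some arrays only.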

Other observations

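Syngr2 (cellugyrin), a vesicle membrane protein of cells outside the nervous system and a relative of the synaptic vesicle protein Syngr1, was among the other vesicle genes and was looked at after its values were seen. Its 3 probes were detected on all arrays and had log2 fold changes of 0.55, 0.69 and 0.72 (limma adjusted p = 0.475, 0.379 and 0.363), and with each probe all Bcl11b arrays were above all mock arrays, as were 2.97% of detected probes. Vps45, a Munc18 relative that acts on SNAREs of the trans-Golgi network and endosomes, measured 9.27 to 9.35 on the mock arrays and 9.38 to 9.92 on the Bcl11b arrays. Its log2 fold change was 0.35 (SE 0.11, limma adjusted p = 0.325).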
